A study of Homo sapiens with 18 samples.

Results

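Senescent fibroblasts stripped of their mitochondria were given either acetate or mitochondrial DNA (mtDNA), and the comparison described here sets these treatments directly against each other, with no control group in between. It uses the 3 libraries of Sen(IR) + CCCP + Acetate and the 3 of Sen(IR) + CCCP + mtDNA, 6 of the 18 RNA-seq libraries of the study. Its members are all genes that passed a filter on low counts in these 6 libraries, 15562 of the 57500 genes in the table. The cells of both groups were IMR90 human fetal lung fibroblasts, made senescent by ionising radiation (IR) and engineered so that the uncoupler CCCP triggers removal of their mitochondria. Radiation and CCCP were therefore common to both groups. Acetate was added once the mitochondria had been cleared and kept in the medium until collection, whereas mtDNA was transfected late in the culture with a lipid reagent. No transfection reagent is stated for the acetate group, so the effects of acetate and mtDNA cannot be told apart from those of the reagent or of the length of treatment. The other groups, proliferating cells (Prol), senescent cells with mitochondria (Sen(IR)), depleted cells given neither agent (Sen(IR) + CCCP) and depleted cells given both, serve only as reference levels.

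Senescent cells stop dividing but secrete a mixture of cytokines, chemokines, proteases and growth factors known as the senescence-associated secretory phenotype (SASP). Acetate is a carbon source that the enzyme ACSS2 converts to acetyl-CoA, the donor for histone acetylation. DNA in the cytosol is bound by the sensor cGAS, which makes a messenger for the adaptor STING and leads through the kinase TBK1 and the factor IRF3 to interferon-β, whose receptor switches on antiviral genes through factors of the STAT and IRF families.

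Most genes differed between the treatments. By edgeR's quasi-likelihood test with Benjamini-Hochberg adjustment over all 15562 genes, 10502 (67.5%) had an adjusted p under 0.05. Of these, 5334 genes (34.3%) were higher with acetate and 5168 (33.2%) were higher with mtDNA. Many of these differences were small, since the median absolute log2 fold change of the genes past the threshold was 0.52. A fold of 2 or more was reached by 1283 genes (8.24%) in the direction of acetate and by 1152 genes (7.4%) in the direction of mtDNA. The tail of large differences was longer on the mtDNA side. At a fold of 8 or more there were 48 genes higher with acetate and 125 higher with mtDNA, and at a fold of 64 or more there were 0 and 17. In bulk RNA, fewer cells with a transcript and less of it per cell cannot be told apart. Counts within the gene lists are over the members that passed the low-count filter and describe those members only. Each is to be read against the shares of all genes given here.

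The libraries behind these values held 28417655 to 46045962 counts on genes with acetate and 25964689 to 28988516 with mtDNA. Replicates lay close together. Among genes over 10 CPM (counts per 1000000, the library total being scaled by its TMM factor), the median coefficient of variation was 3.52% with acetate and 4.11% with mtDNA, and no 2 libraries of a group agreed within sampling noise. The study describes its replicates in vitro as independent experiments, though the labels do not tie single libraries to cultures. All log2 fold changes are acetate minus mtDNA, so that a negative value is a gene higher with mtDNA, and the median over all genes tested was 0.017.

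**Figure D1:**
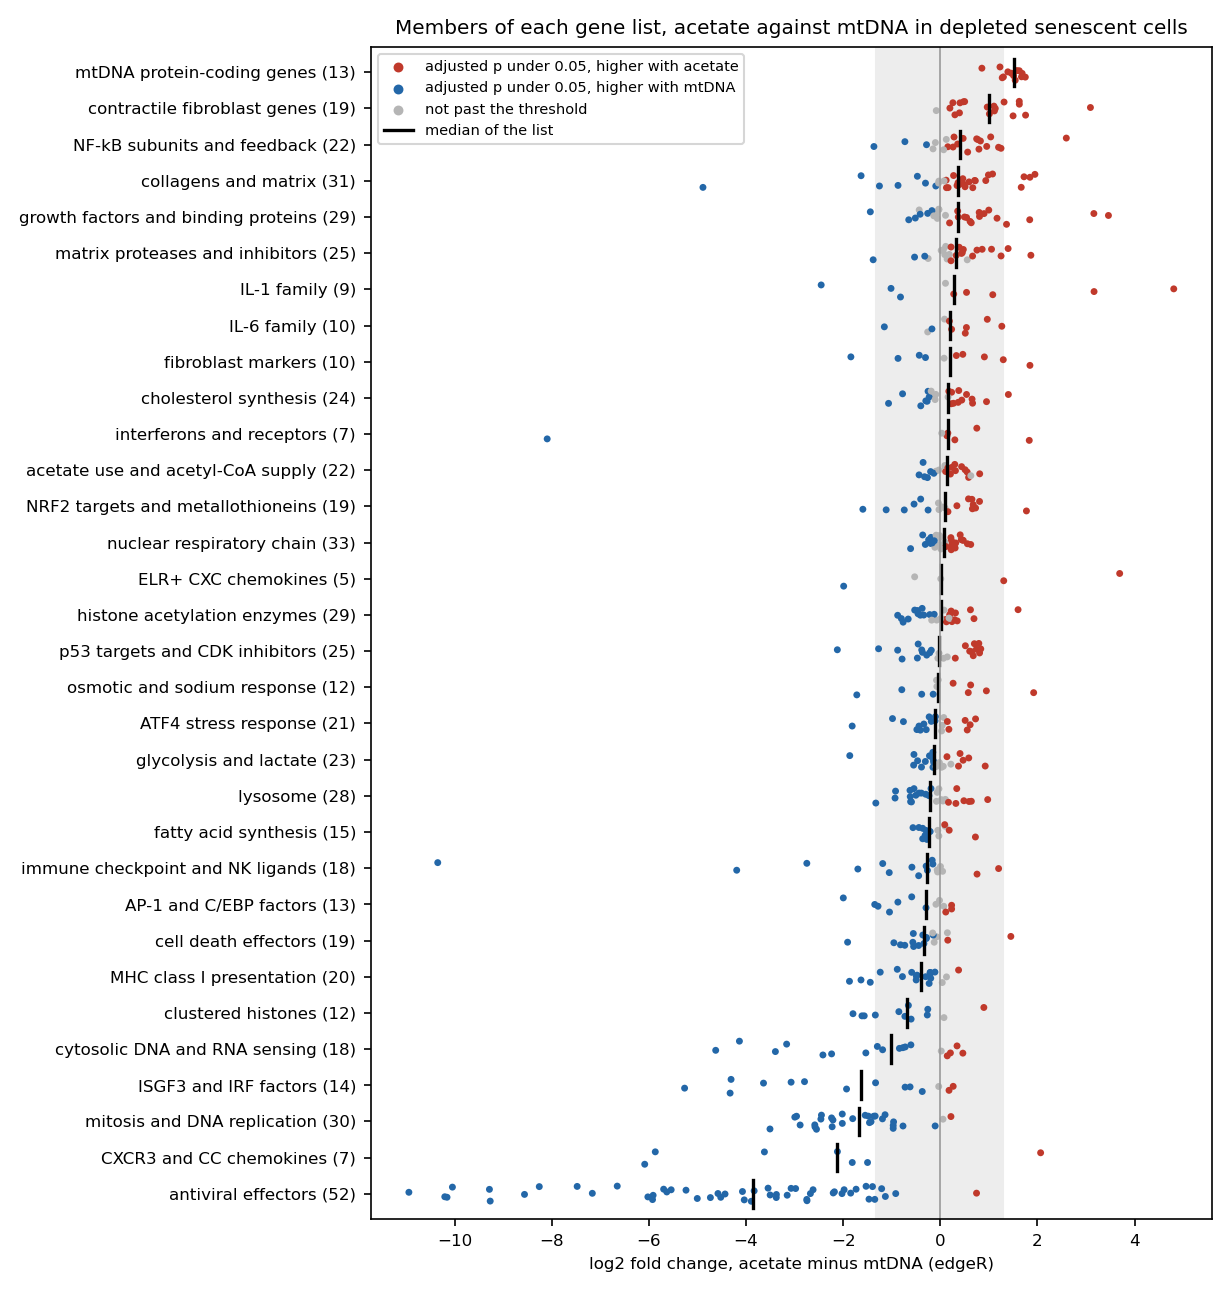
Log2 fold change (x axis, acetate minus mtDNA, from edgeR) of each tested member of the gene lists with at least 5 such members (y axis, number tested in parentheses); red and blue points passed an adjusted p of 0.05, grey points did not, black bars are list medians, the points of IFNB1 and IDO1 (0 counts with acetate) are fitted values and no bounds, and the shaded band spans the middle 90% of all genes tested (-1.32 to 1.29). The antiviral effectors reach -10.94 and have a median of -3.86, the genes of mitosis and DNA replication a median of -1.67, and the contractile and mtDNA-encoded genes medians of 1.01 and 1.51.

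Of the 35 gene lists examined, the antiviral effectors of the interferon response had the median furthest from 0. IFNB1, which encodes interferon-β, had 0, 0 and 0 counts in the acetate libraries and 25, 32 and 28 in the mtDNA libraries (edgeR, adjusted p = 4.14e-07). With 3 counts over the acetate group as the floor, IFNB1 was 39.6-fold higher with mtDNA (lower end of the exact 95% counting interval: 31.5). It also had 0 CPM in Sen(IR) + CCCP, Sen(IR) and Prol cells. Of the 16 interferon and receptor genes listed, 7 passed the filter, 5 of them higher with acetate and 1, IFNB1, higher with mtDNA, with a list median of 0.16. IFNAR2, a subunit of the interferon-β receptor, was among the 5, with 15.4 ± 0.157 CPM with acetate against 9.14 ± 0.932 with mtDNA (SD, n = 3 each), a log2 fold change of 0.75 (SE 0.0837, adjusted p = 1.11e-06). The other interferons of the list were at 0 to 3 counts per library, except IFNE, an epithelial type I interferon, at 0.579 ± 0.0613 against 0.161 ± 0.0543 CPM.

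Among 18 tested genes of cytosolic DNA and RNA sensing, 13 were higher with mtDNA and 4 with acetate, with a median log2 fold change of -1.01. CGAS, the DNA sensor, had 10.7, 9.85 and 10.4 CPM with acetate and 18.4, 16.6 and 16.1 with mtDNA, and the ranges did not overlap (log2 fold change -0.72, SE 0.0783, adjusted p = 8.38e-07). TMEM173, the file's name for STING, was at 12.6 ± 1.18 CPM with acetate, at 30.7 ± 1.28 with mtDNA and at 29.8 ± 1.64 in Sen(IR) + CCCP cells. Its difference between the treatments, a log2 fold change of -1.3 (SE 0.0718, adjusted p = 3.89e-10), thus came with an mtDNA level near that of the depleted cells and a lower acetate level. The RNA sensors reached larger differences, led by the endosomal receptor TLR3 at -4.62, IFIH1 (MDA5) at -4.13 and DHX58 at -3.39 on the log2 scale. IRF3, MAVS, IKBKE and RNASEH2C were the 4 members higher with acetate, all by less than a log2 fold change of 0.5.

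Of 14 tested STAT, IRF and feedback genes, 11 were higher with mtDNA and 2 with acetate (median -1.63). BATF2 (-5.26), IRF7 (-4.33), the factor that amplifies type I interferon, and USP18 (-4.31), which removes ISG15 from proteins and dampens the receptor, showed the largest log2 fold changes in the list. IRF7 had 0.799, 0.798 and 0.677 CPM with acetate and 18.7, 14.8 and 12.1 with mtDNA, with no overlap, and Sen(IR) + CCCP cells were at 0.729 ± 0.15 CPM (log2 fold change -4.33, SE 0.186, adjusted p = 2.27e-11). IRF1 was 1 of the 2 members higher with acetate, at 102, 91.8 and 97.1 against 95.1, 77.2 and 84 CPM, where the ranges overlapped and the adjusted p was 0.018 here but 0.136 when all 18 libraries shared the estimate of the spread. Leaving out Acetate replicate 1 or 3, or mtDNA replicate 2 or 3, also ended that call (adjusted p of 0.0539 to 0.0836), as did limma (0.106).

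All but 1 of the 52 antiviral effector genes were higher with mtDNA, 50 of them by a fold of 2 or more, with a median log2 fold change of -3.86. RSAD2, which encodes viperin, had 0.104, 0.177 and 0.0846 CPM in the acetate libraries and 308, 168 and 275 in the mtDNA libraries. That is a log2 fold change of -10.94 (SE 0.329, adjusted p = 4.57e-13), the largest fold change among genes with at least 5 CPM in the higher group. MX1, a GTPase that blocks viral nucleocapsids, had 1.01, 0.976 and 0.74 against 659, 425 and 588 CPM and a log2 fold change of -9.28 (SE 0.189, adjusted p = 1.19e-14). In both genes the mtDNA libraries stood far over the acetate libraries, with no overlap.

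The oligoadenylate synthetases, which activate RNase L, were led by OAS1 at 0.0732 ± 0.0309 against 82.2 ± 19.9 CPM (-10.04 on the log2 scale), then OAS2 (-9.27), OASL (-8.56) and OAS3 (-7.16). CMPK2, RSAD2's neighbour on chromosome 2, and IFI44L had log2 fold changes of -10.2 and -10.15. BST2, the tetherin that holds budding virus at the membrane, had 4 counts in the acetate group and 969 in the mtDNA group, a ratio of 338 with a 95% counting interval of 132 to 1244. IFIT2 and IFIT3 had the largest differences in CPM of the list. IFIT2 rose from 7.17 to 1258 CPM between the acetate and mtDNA means, and IFIT3 from 26.1 to 976. The single member higher with acetate was GBP2, a guanylate-binding protein, at 5.21, 4.39 and 6.01 against 3.85, 1.68 and 3.74 CPM (log2 fold change 0.75, SE 0.217, adjusted p = 0.00664), and that call was lost in DESeq2's Wald test (adjusted p = 0.0735).

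The mtDNA libraries differed among themselves in this response. Replicate 2 had the lowest CPM of the 3 for 51 of the 52 effectors, for example 168 against 275 and 308 for RSAD2, and leaving it out moved the log2 fold change of RSAD2 from -10.94 to -11.16. In mean CPM, 47 of the 52 effectors exceeded Sen(IR) cells with mtDNA, and 2 of the 52 had an acetate mean above that of Sen(IR) cells. The same count over all genes is not given here, so these counts describe the members only. MX1, at 557 CPM with mtDNA, stood at 39.3 in Sen(IR) and 12.4 in Prol cells.

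Genes of MHC class I presentation moved the same way by less, with 17 of 20 higher with mtDNA, 1 higher with acetate and a median of -0.39. The largest differences were in NLRC5 (-1.87), the transactivator of these genes, the immunoproteasome subunit PSMB9 (-1.63) and the peptide transporter TAP1 (-1.44). Of the 18 tested checkpoint and NK-cell ligands 12 were higher with mtDNA. IDO1, a tryptophan-degrading enzyme, had 0 counts in each acetate library and 160, 125 and 120 in the mtDNA libraries. With 3 counts over the acetate group as the floor, IDO1 was 188-fold higher (lower end of the exact 95% counting interval: 153). TNFSF13B, the B-cell factor BAFF, was at 1.34 ± 0.0939 against 24.7 ± 6.85 CPM (-4.19 on the log2 scale).

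Of 15 chemokines that bind CXCR3 or belong to the CC class, 7 were tested and 6 of these were higher with mtDNA (median -2.12). CXCL10, a ligand of the chemokine receptor CXCR3 of T cells, had 16.1, 8.54 and 9.84 CPM with acetate and 182, 81.9 and 145 with mtDNA, a log2 fold change of -3.62 (SE 0.246, adjusted p = 4.01e-09). Sen(IR) + CCCP cells were lower than either treatment, at 1.39 ± 0.208 CPM, and Sen(IR) cells had 327. CXCL11, of the same class, showed a log2 fold change of -5.87 (SE 0.256, adjusted p = 2.7e-11). CCL5 had 5 counts with acetate and 264 with mtDNA, a ratio of 73.7 (95% counting interval 31.2 to 229). CCL2, the monocyte attractant, was higher with mtDNA at 7.28 ± 2.39 against 2.17 ± 0.862 CPM, while CCL20 was the 1 of 7 tested members higher with acetate (2.15, 1.86 and 1.04 against 0.216, 0.429 and 0.516 CPM, log2 fold change 2.07, SE 0.357, adjusted p = 0.000106). Both stayed far below Sen(IR) cells, at 236 CPM for CCL2 and 16.6 for CCL20.

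**Figure D2:**
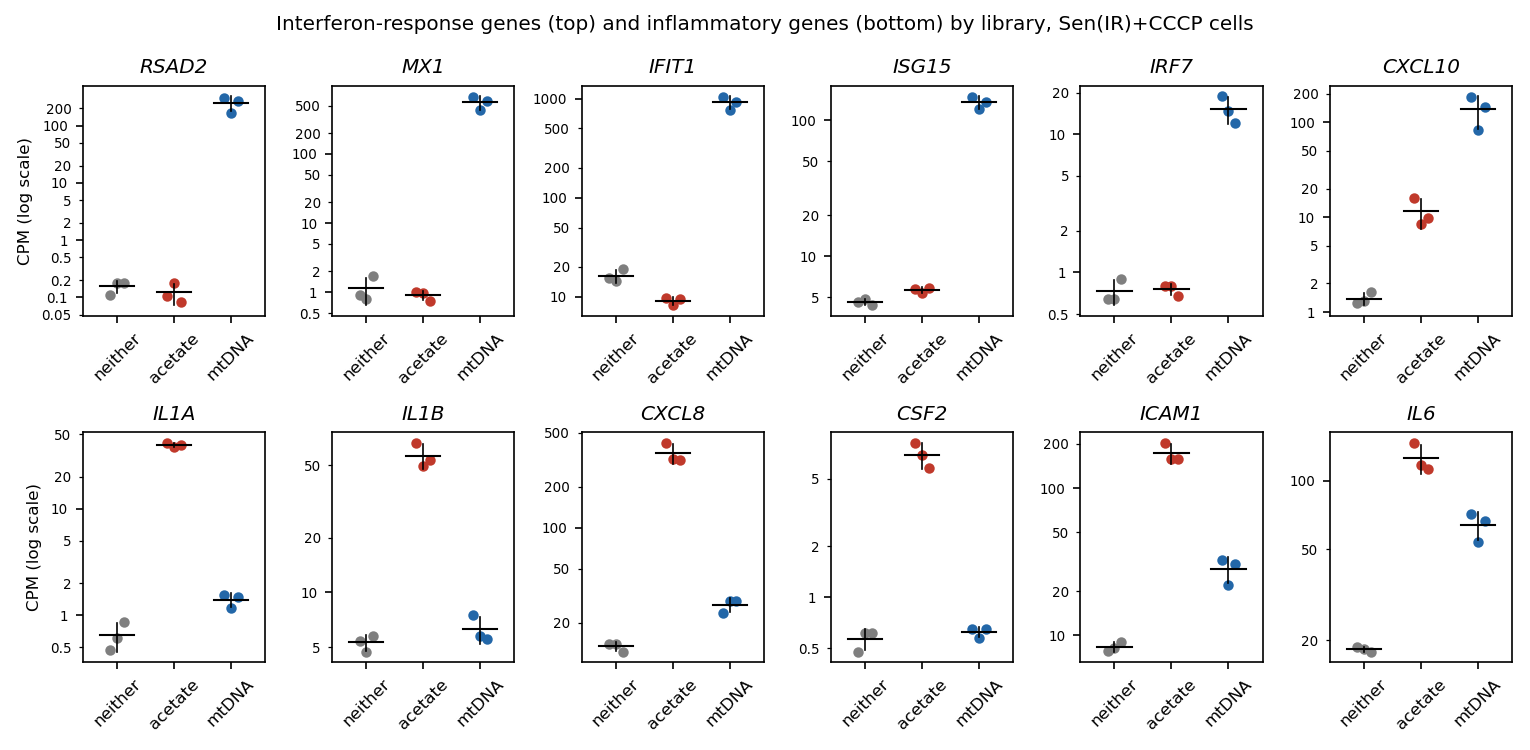
CPM on a log scale (y axis) of 6 interferon-response genes (top row) and 6 inflammatory genes (bottom row) in the 3 libraries each of Sen(IR) + CCCP cells given neither agent, acetate or mtDNA (x axis); points are libraries, horizontal lines means and vertical lines ± 1 SD. In the top row the mtDNA libraries stand apart from the other groups, with RSAD2 at 168 to 308 CPM, and in the bottom row the acetate libraries are the highest, with IL1A at 38.0 to 41.3 CPM.

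The promoters of the genes that separated the treatments are shown because the interferon factors bind a known element. The core of that element, the interferon-stimulated response element, was searched as a pair of GAAA separated by 2 bases of any kind on both strands, in windows from 250 bases before to 50 after each start site in RefSeq (GRCh38.p14). Capitals mark the matches, which read as TTTC pairs where they lie on the other strand. RSAD2 is shown at the second of its annotated starts, since the first window held no match, and the windows of IFIT1 and ISG15 were added after their values were seen. In the last line, IL6, which was higher with acetate, the capitals mark a match to the NF-kB consensus instead.
RSAD2, chr2:6877527-6877826, plus strand: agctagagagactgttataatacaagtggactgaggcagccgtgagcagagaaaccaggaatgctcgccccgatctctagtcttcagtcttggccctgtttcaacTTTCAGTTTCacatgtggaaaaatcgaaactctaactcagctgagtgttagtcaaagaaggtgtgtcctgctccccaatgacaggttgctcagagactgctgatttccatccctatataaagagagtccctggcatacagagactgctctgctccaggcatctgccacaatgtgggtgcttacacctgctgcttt
IFIT1, chr10:89392373-89392672, plus strand: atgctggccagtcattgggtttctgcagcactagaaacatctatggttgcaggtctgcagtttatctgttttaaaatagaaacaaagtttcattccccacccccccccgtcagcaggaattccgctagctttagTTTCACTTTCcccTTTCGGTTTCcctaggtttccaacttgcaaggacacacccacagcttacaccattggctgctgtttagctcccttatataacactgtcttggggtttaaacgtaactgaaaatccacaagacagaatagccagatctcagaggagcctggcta
ISG15, chr1:1013247-1013546, plus strand: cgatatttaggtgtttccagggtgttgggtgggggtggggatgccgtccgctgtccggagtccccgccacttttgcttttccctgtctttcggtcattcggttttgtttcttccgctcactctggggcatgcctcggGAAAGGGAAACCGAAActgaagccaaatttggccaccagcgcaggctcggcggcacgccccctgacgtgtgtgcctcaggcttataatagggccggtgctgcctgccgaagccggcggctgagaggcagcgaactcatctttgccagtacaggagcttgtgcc
CXCL10, chr4:76023448-76023747, minus strand: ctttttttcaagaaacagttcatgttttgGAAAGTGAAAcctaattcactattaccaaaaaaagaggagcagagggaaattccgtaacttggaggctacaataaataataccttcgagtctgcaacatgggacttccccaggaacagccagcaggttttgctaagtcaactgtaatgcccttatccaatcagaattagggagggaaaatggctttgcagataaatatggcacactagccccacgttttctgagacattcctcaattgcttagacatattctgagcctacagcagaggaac
IL6, chr7:22726950-22727249, plus strand: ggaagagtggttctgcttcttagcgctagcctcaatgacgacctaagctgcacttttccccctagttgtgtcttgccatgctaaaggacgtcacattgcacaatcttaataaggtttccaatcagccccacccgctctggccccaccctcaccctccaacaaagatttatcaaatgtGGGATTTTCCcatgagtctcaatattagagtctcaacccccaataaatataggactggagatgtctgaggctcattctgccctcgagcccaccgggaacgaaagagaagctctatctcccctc

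IFIT1 had 9.66, 8.23 and 9.6 CPM with acetate against 1042, 773 and 935 with mtDNA, and ISG15 5.8, 5.37 and 5.84 against 148, 120.4 and 137, with log2 fold changes of -6.65 and -4.58. Each of the windows shown for these genes held 2 matches, which overlap in ISG15, and RSAD2 and CXCL10 held 1 each. Over the antiviral list, 37 of 55 windows (67.3%) held the core, against 484 of 16150 windows (3.0%) of all genes tested and 3.57% of all 35116 RefSeq windows. The share was 4.07% among windows of genes higher with mtDNA, 8.74% at a fold of 2 or more and 33.3% at a fold of 8 or more. These groups include members of the antiviral list, which was chosen as interferon effectors, so the shares are not independent of each other. For genes higher with acetate the share was 2.33%, 3.36% at a fold of 2 or more and 5.41% (2 of 37 windows) at a fold of 8 or more. The windows also differed in base composition, with a median GC of 64.7% for all genes tested and 52.7% for the antiviral list. At a fold of 8 or more the median GC was 55.7% with mtDNA and 64% with acetate. The part of base composition in the shares was not tested. The single RefSeq window of OAS1, 1055-fold higher with mtDNA, held no match, which says only that these letters are not in that window. Of the 15562 genes, 11071 could be matched to a RefSeq promoter by symbol or synonym. The NF-kB consensus was in 6.61% of windows of all genes tested, in 8.31% of those of genes higher with acetate by a fold of 2 or more and in 5.82% of those higher with mtDNA by as much. At a fold of 8 or more the shares were 10.8% with acetate and 9.26% with mtDNA, and the antiviral list had 9.09%. The windows of IL1A, IL1B, CXCL8 and ICAM1 held no match to it, which says only that the consensus searched is not in those windows. Sequences that depart from that consensus were not searched.

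**Figure D3:**
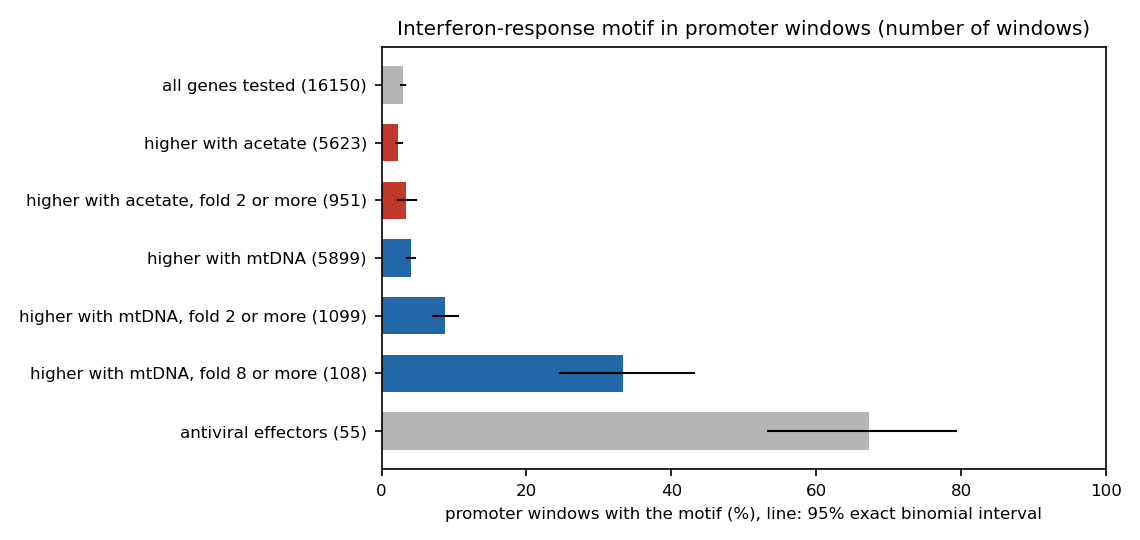
Share of RefSeq promoter windows (x axis, percent, from 0) that hold the interferon-response core in each group of genes (y axis, number of windows in parentheses); lines are 95% exact binomial intervals, which cover counting error only. The share stands at 3.0% for all genes tested, 33.3% for genes at least 8-fold higher with mtDNA and 67.3% for the antiviral list, and the groups share genes.

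IL1A, IL1B, CXCL8, CSF2 and IL6 were higher with acetate, while other cytokine genes (IL33 and CXCL5, beside the chemokines already given) were higher with mtDNA. IL1A, an early trigger of the SASP, had 41.3, 38 and 39.1 CPM with acetate and 1.55, 1.18 and 1.48 with mtDNA. The groups did not overlap, with a log2 fold change of 4.81 (SE 0.0958, adjusted p = 1.09e-14), and Sen(IR) + CCCP cells were at 0.653 ± 0.198 CPM. The acetate level also lay above that of Sen(IR) cells, 8.34 ± 1.62 CPM. IL1B had 66.2, 49.8 and 53.3 CPM against 7.49, 5.79 and 5.55, a log2 fold change of 3.17 (SE 0.117, adjusted p = 4.11e-12). Of the 9 tested IL-1 family genes, 5 were higher with acetate and 3 with mtDNA (median 0.28). The alarmin IL33 (-2.45), its receptor IL1RL1 (-1.01) and CASP1 (-0.82), which cleaves the IL-1β precursor, were the members on the mtDNA side.

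CXCL8, the neutrophil attractant, had 419, 322 and 312 CPM with acetate against 23.5, 28.8 and 28.9 with mtDNA, a log2 fold change of 3.69 (SE 0.105, adjusted p = 2.55e-13). It stood at 13.4 ± 1.02 in Sen(IR) + CCCP and 712 ± 96.2 in Sen(IR) cells. The ELR+ chemokines did not move as a block. Beside CXCL8, CXCL1 was higher with acetate (1.31, adjusted p = 0.00706, from at most 45 counts per library), CXCL5 was higher with mtDNA at 13.8 ± 1.59 against 3.52 ± 0.456 CPM (-1.99), and CXCL2 and CXCL3 did not pass the threshold (adjusted p = 0.0568 and 0.968).

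IL6 was higher with acetate, but by less, at 146, 117 and 113 CPM against 71.3, 53.7 and 66.2, a log2 fold change of 0.97 (SE 0.0952, adjusted p = 2.8e-07). Both treatments were above Sen(IR) + CCCP cells (18.3 ± 0.448 CPM) and both below Sen(IR) cells (353 ± 31.5 CPM). Within the IL-6 family 6 of 10 tested genes were higher with acetate and 2 with mtDNA (median 0.21). These 6 held the cytokines IL11 (0.54) and LIF, and the receptor chain IL11RA (1.27), while the IL-6 receptor IL6R was higher with mtDNA (-1.15). CSF2, which encodes the growth factor GM-CSF, had 8.17, 6.94 and 5.77 CPM with acetate and 0.648, 0.572 and 0.645 with mtDNA, a log2 fold change of 3.46 (SE 0.195, adjusted p = 4.52e-10).

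NF-kB is the factor family that drives most of these cytokines, and its own targets and inhibitors form its feedback. Of 22 such genes 15 were higher with acetate, 3 with mtDNA and 4 not past the threshold (median 0.41). ICAM1, an adhesion molecule, led with 203, 157 and 158 CPM against 32.7, 22.1 and 30.6, a log2 fold change of 2.59 (SE 0.115, adjusted p = 3.08e-11). NFKBIZ (1.25), the co-activator of IL6, and TNFAIP2 (1.2) followed. TNFAIP3 (A20), which limits NF-kB signalling, went the other way, at 47.4 ± 2.45 CPM with mtDNA against 28.7 ± 1.84 with acetate (log2 fold change -0.73, SE 0.0587, adjusted p = 2.93e-08), as did the subunit RELA (-0.28) and the low-count TNIP3. Of 13 AP-1 and C/EBP factors 7 were higher with mtDNA and 3 with acetate (median -0.29), among them FOSB (-1.35) and CEBPD (-1.28).

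Among proteases and matrix genes more were higher with acetate than with mtDNA. PLAU, the urokinase activator of plasminogen, had 6623, 6164 and 5939.6 CPM with acetate against 2747, 2561 and 2560.1 with mtDNA, the largest gain in CPM of any gene (log2 fold change 1.25, SE 0.0428, adjusted p = 1.81e-12). PLAT, the tissue-type activator, had 3896, 3580.2 and 3587 against 1097, 945 and 996 CPM (log2 fold change 1.86, SE 0.0508, adjusted p = 1.73e-13). Over 25 proteases and inhibitors, 14 were higher with acetate and 3 with mtDNA (median 0.33). MMP3, a stromelysin of the SASP, was 1 of the 3, at 19.8, 20.6 and 17.9 against 49.4, 54.7 and 47.7 CPM (-1.38 on the log2 scale).

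Of 31 collagen and matrix genes 21 were higher with acetate and 7 with mtDNA (median 0.37). COL11A1 (1.95), the proteoglycan LUM (1.85) and COL12A1 (1.72) were furthest on the acetate side. The opposite held for COL5A3, which had 0, 0.0887 and 0.19 CPM with acetate against 3.81, 3.36 and 2.61 with mtDNA and 2.8 ± 0.20 in Sen(IR) + CCCP cells (log2 fold change -4.89, SE 0.379, adjusted p = 1.84e-08). Growth factors and their binding proteins gave 16 of 29 higher with acetate and 6 with mtDNA (median 0.36). Beside CSF2, PDGFB rose from 1.01 ± 0.0607 CPM with mtDNA to 9.04 ± 0.831 with acetate (3.16) and the stress cytokine GDF15 from 123 ± 7.96 to 439 ± 15.9 (1.84). The insulin-like growth factor binding proteins split, with IGFBP5 higher with acetate (5584 against 2170.0 CPM) and IGFBP6 higher with mtDNA (70.6 against 26.1 CPM).

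Genes of the cell cycle were also higher with mtDNA. Of 30 genes of mitosis and DNA replication, 28 were higher with mtDNA, 23 of them by a fold of 2 or more, with a median of -1.67. MKI67, the proliferation antigen, had 2.75, 3.28 and 3.6 CPM with acetate and 23.1, 26.3 and 28.5 with mtDNA, a log2 fold change of -2.99 (SE 0.106, adjusted p = 2.57e-12). KIF20A, a kinesin of cytokinesis, had 0.313, 0.466 and 0.402 against 4.71, 4.25 and 4.87 CPM (-3.51) and RRM2, a subunit of ribonucleotide reductase, 29.4, 25.2 and 23.5 against 196, 202 and 204 (-2.96). The groups did not overlap in any of these 3 genes, and the acetate libraries were the low ones. Sen(IR) + CCCP cells, at 30.6 ± 2.11 CPM for MKI67, were near the mtDNA level, while Sen(IR) cells were at 15.1 ± 1.94 and Prol cells at 59.4 ± 0.615. The 2 members not higher with mtDNA were G1 cyclins. CCNE1 was 1.16-fold higher with acetate (adjusted p = 0.0459), a call lost in most of the alternative analyses, other scaling factors included, and CCND2 did not pass (adjusted p = 0.294).

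Other markers of the cell cycle state moved with these. LMNB1, the lamin that is lost in senescence, had 2.95, 2.88 and 2.96 CPM with acetate against 13.6, 12.4 and 12.3 with mtDNA (log2 fold change -2.12, SE 0.101, adjusted p = 6.73e-11). Clustered histone genes were higher with mtDNA in 10 of 12 cases and with acetate in 1 (median -0.69), for example HIST1H2BC at 15.2 ± 1.0 against 4.43 ± 0.594 CPM. These genes share reads with near-identical copies, and libraries of polyadenylated RNA capture most of their transcripts poorly. The exception was H1F0, a linker histone gene that is not part of the clusters but was in the list, at 577 ± 15.4 with acetate against 309.9 ± 20.1 (0.90). CDKN1A (p21) was 1.63-fold higher with acetate, at 1906, 1786 and 1901 against 1107, 1209.9 and 1122 CPM (adjusted p = 5.99e-10), and CDKN2B was higher with acetate by 0.81 on the log2 scale. CDKN2A (p16) was at 8.6 ± 0.341 against 8.88 ± 0.333 CPM and did not pass (log2 fold change -0.049, SE 0.087, adjusted p = 0.632). The 25 p53 targets and inhibitors as a whole were split, 10 against 11, around a median of -0.026.

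Contractile genes, which mark activated fibroblasts, were higher with acetate. Of 19 tested, 18 were higher with acetate, 10 by a fold of 2 or more, and 0 with mtDNA (median 1.01). ACTA2, smooth muscle actin, had 134, 107 and 133 CPM with acetate against 44.1, 37.2 and 39.5 with mtDNA, a log2 fold change of 1.63 (SE 0.0795, adjusted p = 9.35e-11). LMOD1, an actin nucleator of smooth muscle, had 21.7, 17 and 20.1 against 3.13, 1.86 and 1.9 (3.09), and CTGF, the matricellular factor CCN2, 835, 722 and 820.5 against 251, 216 and 237 (1.76). No ranges overlapped in these 3 genes. Levels in cells with mitochondria were higher still for ACTA2, 443 ± 34.5 CPM in Sen(IR) and 848 ± 4.13 in Prol cells. ITGA11, a collagen receptor, was the member that did not pass (adjusted p = 0.383).

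**Figure D4:**
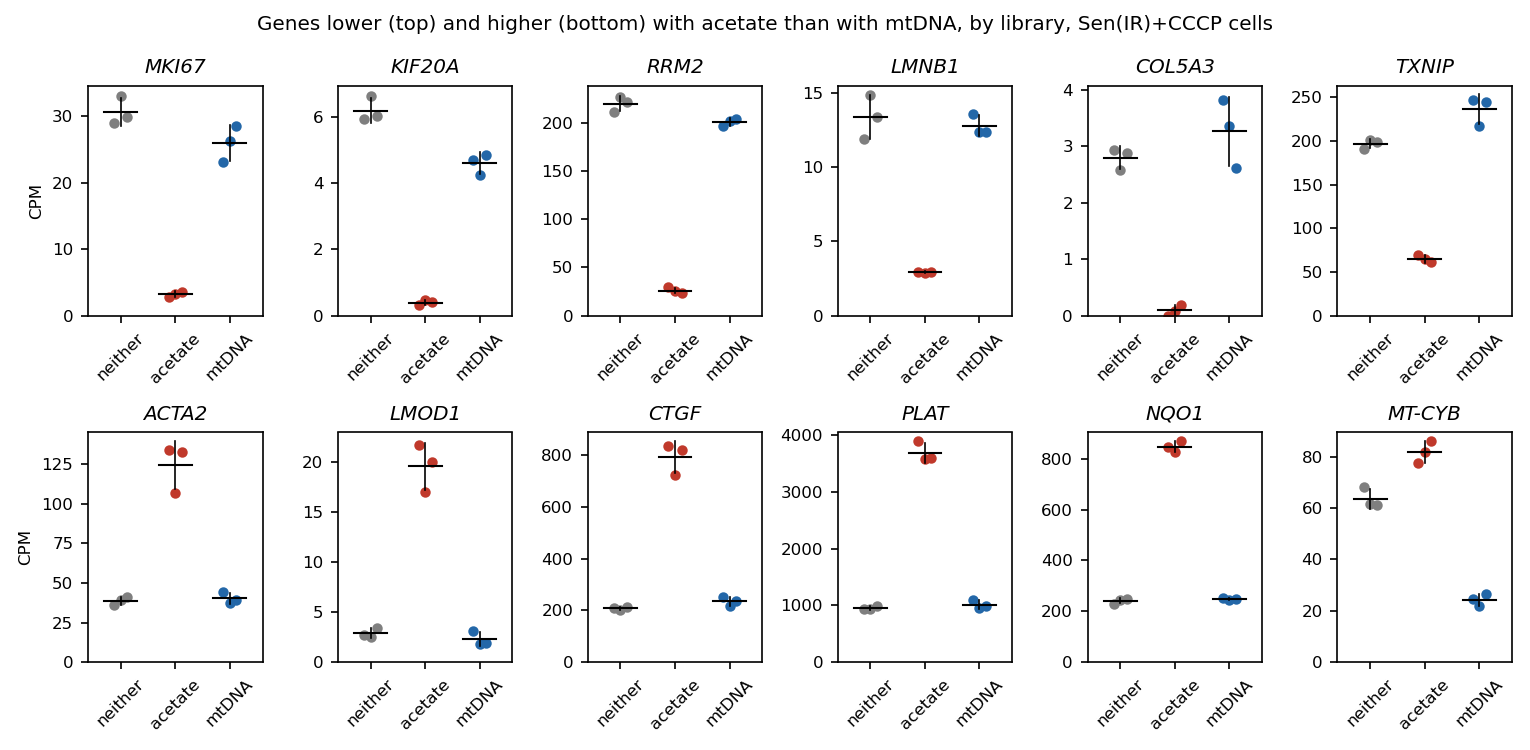
CPM on a linear scale from 0 (y axis) of 6 genes lower with acetate than with mtDNA (top row) and 6 higher with acetate (bottom row) in the 3 libraries each of Sen(IR) + CCCP cells given neither agent, acetate or mtDNA (x axis); points are libraries, horizontal lines means and vertical lines ± 1 SD. In 11 of the 12 panels the mtDNA mean lies nearer to the mean with neither agent than the acetate mean does, for example MKI67 at 3.21 CPM with acetate, 26.0 with mtDNA and 30.6 with neither, and in MT-CYB the mtDNA libraries are the low ones at 24.3 CPM.

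All 13 protein-coding genes of the mitochondrial genome were higher with acetate, 12 of them by a fold of 2 or more, with a median of 1.51. They took 0.123, 0.134 and 0.138% of all counts in the acetate libraries and 0.0519, 0.0461 and 0.0534% in the mtDNA libraries. The means were 0.132 ± 0.00761 and 0.0505 ± 0.00387% (SD, n = 3 each), a ratio of 2.61 with no overlap (exact two-sided permutation p = 0.1, the smallest that 3 against 3 can give). In Sen(IR) + CCCP cells the share was 0.122 ± 0.0116% and in Sen(IR) cells 2.11 ± 0.468%. Both treated groups were thus strongly depleted, and cells given mtDNA held the lowest mean share of mtDNA-encoded transcripts of the 6 groups. Cells given both agents had 0.0640, 0.237 and 0.0624% in replicates 1, 2 and 3, so low shares were not particular to mtDNA alone. MT-CYB, a subunit of complex III, had 77.3, 81.9 and 86.1 CPM with acetate against 24.4, 21.9 and 26.6 with mtDNA, the largest of the 13 differences (log2 fold change 1.75, SE 0.064, adjusted p = 3.79e-12). Nuclear copies of mtDNA can share reads with these genes.

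The enzymes that use acetate or set histone acetylation did not move as a block, and most differences were under a fold of 2. ACSS2 had 17.2, 17.7 and 16.3 CPM with acetate and 14.5, 12.8 and 14.3 with mtDNA, 1.23-fold higher with acetate (log2 fold change 0.30, SE 0.0733, adjusted p = 0.00208). ACLY, which makes acetyl-CoA from citrate, was lower with acetate, at 258 ± 4.8 against 349.7 ± 6.92 CPM (-0.44). Of 22 genes of acetate use and acetyl-CoA supply 11 were higher with acetate and 6 with mtDNA, 0 of them by a fold of 2. Among 29 acetyltransferases, deacetylases and bromodomain proteins 11 were higher with acetate and 12 with mtDNA (median 0.0089), shares not far from those over all genes, with the deacetylase HDAC5 at 1.6 and the acetyltransferase KAT5 at -0.88 furthest apart.

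Beside the lists, the rule for the largest fold changes on the acetate side named transcripts outside these pathways. C7orf69, annotated as a long non-coding RNA on chromosome 7 (GRCh38, 47795291 to 47819847, plus strand), had 12.9, 10.7 and 12 CPM against 0.216, 0.322 and 0.161 (log2 fold change 5.66, SE 0.194, adjusted p = 1.91e-12). AC117402.1 had 29.5, 25.9 and 33 against 0.684, 0.608 and 0.806 (5.38). Next came NECTIN3-AS1 (4.3), whose reads cannot be told apart from those of its antisense partner if the libraries were not strand-specific, PSG1 (4.19), of a family of near-identical pregnancy glycoproteins, PURG (3.92), AL353653.1 (3.5) and NDRG4 (3.45). In absolute terms the matrix protein TGFBI (4449 against 2029.9 CPM) and the integrin chain ITGB1 (5775 against 3367 CPM) gained with acetate, and with mtDNA, beside IFIT2 and IFIT3, the filament protein VIM (3966 against 2939 CPM) and the glycolytic enzyme PKM (2959.6 against 2033 CPM).

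The difference between 2 treatments does not say which of them moved, so each was also set over Sen(IR) + CCCP cells in a model of all 18 libraries. These values share the same 3 depleted libraries and are given side by side only. For the 1283 genes higher with acetate by a fold of 2 or more, the median log2 fold change over depleted cells was 1.09 with acetate and -0.31 with mtDNA. For the 1152 genes higher with mtDNA by as much, it was -1.37 with acetate and 0.12 with mtDNA. Against depleted cells, 30.9% of all 15562 genes were called higher and 29.2% lower with acetate, and 9.99% higher and 8.3% lower with mtDNA. Of the 1283 genes 987 were called higher with acetate and 302 lower with mtDNA. Of the 1152 genes 949 were called lower with acetate and 285 higher with mtDNA. Both sets were chosen by the difference between these same acetate and mtDNA libraries. An excess over the shares of all genes is thus partly built in by that choice, and these counts are description only.

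By list, the antiviral effectors had medians of -0.0063 with acetate and 3.91 with mtDNA over depleted cells. The mitosis and replication genes had -2.02 with acetate and -0.13 with mtDNA, and the contractile genes 0.90 and 0.054. The mtDNA-encoded genes had 0.28 with acetate and -1.24 with mtDNA. NF-kB genes were positive in both, 0.98 and 0.44. Of the CXCR3 ligands, CXCL10 stood at 3.03 with acetate (adjusted p = 0.000336) and 6.63 with mtDNA (adjusted p = 1.1e-08). MKI67 stood at -3.23 with acetate (edgeR, adjusted p = 5.04e-15) and -0.24 with mtDNA (adjusted p = 0.153), and MX1 at -0.29 (adjusted p = 0.839) and 8.99 (adjusted p = 3.63e-10). IL6 was above depleted cells with both, by 2.77 and 1.8.

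**Figure D5:**
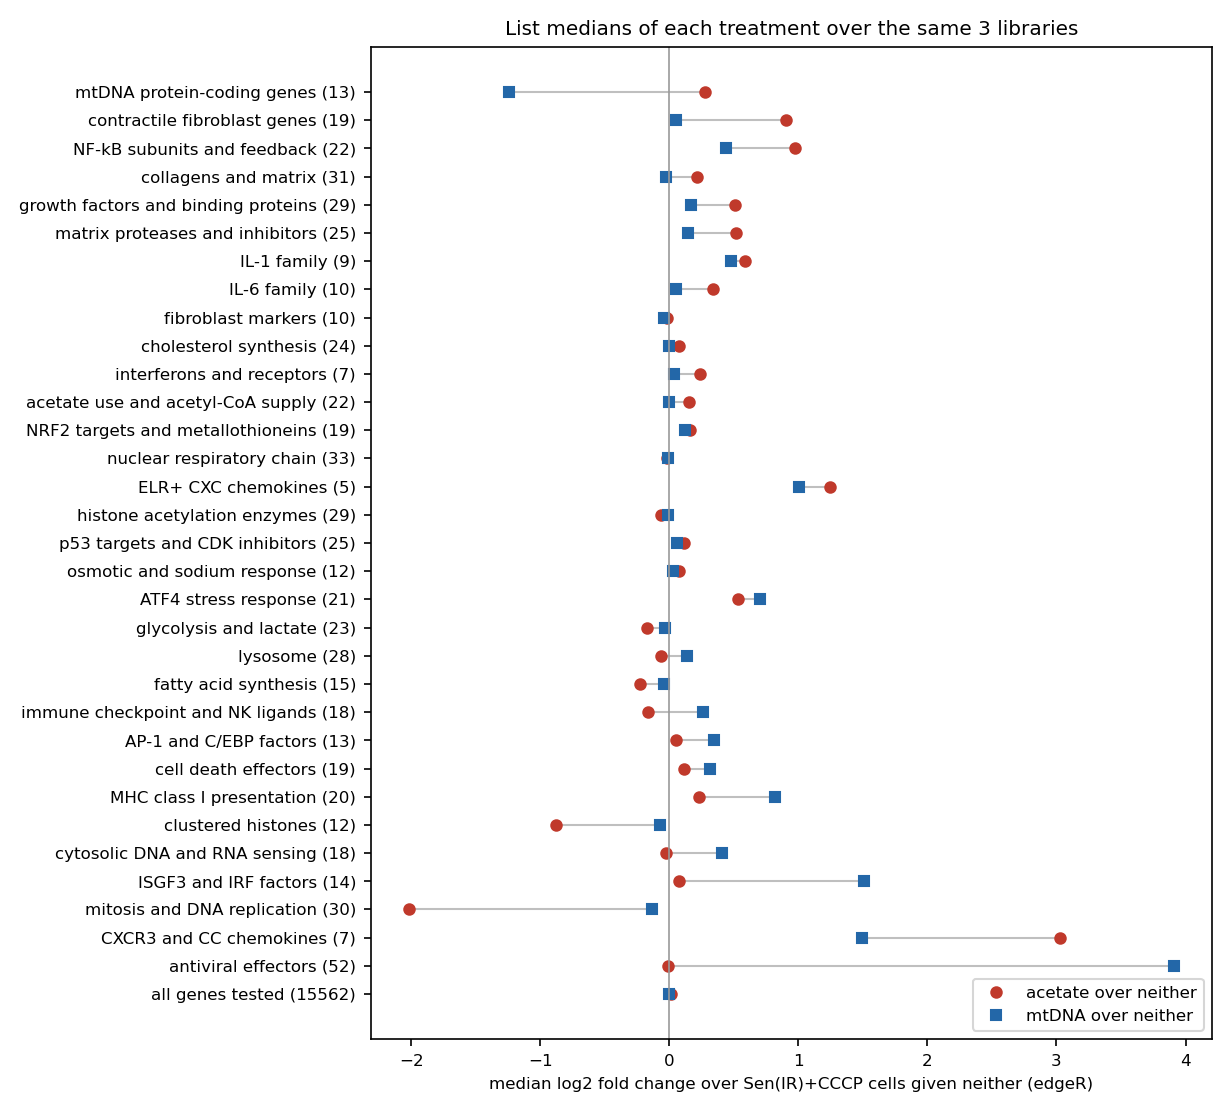
Medians, over the tested members (number in parentheses) of each gene list with at least 5 of them (y axis), of the log2 fold change against Sen(IR) + CCCP cells (x axis, edgeR on all 18 libraries), with acetate (red circles) and with mtDNA (blue squares); both treatments are set over the same 3 libraries, and in the CXCR3 and CC chemokine list of 7 the medians fall on different genes (CXCL10 with acetate, CCL20 with mtDNA). The antiviral list lies at -0.0063 with acetate and 3.91 with mtDNA, the mitosis list at -2.02 and -0.13, and all genes tested near 0 in both.

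The libraries carried the markers of fibroblasts. The list of 10 fibroblast markers summed to 5486 to 5754 CPM with acetate and 6164 to 6434 with mtDNA, 5 of them higher with acetate and 4 with mtDNA. They split in sign, since PDGFRA was higher with acetate (1.3) and FAP, a membrane protease of activated fibroblasts, with mtDNA (-1.84). Of the 8 leukocyte markers, CD14 and CD68 passed the filter, both higher with acetate, and the list summed to 2.28 to 2.40 CPM with acetate against 1.0 to 1.19 with mtDNA. CD3E was at 0 counts in all 6 libraries and PTPRC (CD45) at 4 to 8 counts each. CD14 was at 0.691 ± 0.185 against 0.116 ± 0.0567 CPM. Of the endothelial markers KDR and TEK passed, both higher with mtDNA, and the list, nearly all of it TEK, summed to 169.7 to 193 CPM with acetate and 252 to 293 with mtDNA. The epithelial markers summed to 27.9 to 30.7 and 37.0 to 40.3 CPM, with EPCAM and KRT18 higher with mtDNA and KRT8 and KRT19 not past the threshold. The part of other cell types in the results was not tested.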

How the data were processed

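RNA-seq of 18 libraries of polyadenylated RNA was used, of which the 6 libraries of the comparison were compared. Per the labels, the authors used Trimmomatic (v0.36) for trimming, STAR (v2.5.2b) for alignment with GRCh38 as the genome and featureCounts of Subread (v1.5.2) for counting reads per gene. The authors deposited raw counts per gene and, for the same genes, TPM, which correct for gene length and depth. Counting used strand where libraries were strand-specific, but whether these libraries were is not given in the sources used here, which affects antisense and overlapping genes. Of the 57500 genes, 485 carry no symbol, and 0 columns were left without a sample.

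Genes were filtered with filterByExpr over the 6 libraries (15562 kept) and compared with the quasi-likelihood test of edgeR (v4.0.16, R v4.3.3), with TMM factors computed over all 18 libraries so that CPM of every group are on one scale, Benjamini-Hochberg adjustment over all genes tested and a threshold of 0.05. The common biological coefficient of variation was 0.0462. Standard errors are the absolute log2 fold change over the square root of F. Levels over Sen(IR) + CCCP come from one edgeR model of all 18 libraries. DESeq2 (v1.42.0), limma (v3.58.1, on log2(TPM + 1), pseudocount 1), other scaling factors, other filters, a replicate block and leaving out each library served as alternatives, and the procedure was tested on simulated counts. Counting intervals are exact at 95%, the floor is 3 counts per group, and both cover counting error only. The NF-kB motif and the windows of IFIT1 and ISG15 were added after the data were seen. Gene coordinates are from GENCODE v44 on GRCh38, and promoters from RefSeq.

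The comparison, the gene lists and the tests were chosen with earlier results of these data known, so no list is independent evidence, and lists are described by counts and medians without a test. Genes were named by rule, which took in each direction the 10 largest fold changes past the threshold with a symbol, no overlap and at least 5 CPM in the higher group, the 5 largest differences in CPM, up to 3 members per direction of each of the 35 lists, the members of lists in which at most 3 passed the filter, and IL6, IL1A, IL1B, CXCL8, CXCL10, CCL20, CCL2, IFNB1, CDKN1A, CDKN2A, LMNB1, ACSS2, CGAS and STING1. The rule named 195 genes, some of which are not reported here. Others in the text were singled out after their values were seen, as the exceptions of a list or beside their list.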

Additional observations from a re-analysis of the deposited data

How the results depend on the processing

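Under DESeq2 with the thresholds of the study (unadjusted p under 0.05, log2 fold change beyond 0.5 either way), 2739 genes were higher with acetate and 2613 with mtDNA, against 5334 and 5168. The number higher with acetate by a fold of 2 or more was 807 with at least 10 counts in every library and 635 in limma on log2(TPM + 1), against 1283, and that higher with mtDNA was 762 in limma against 1152; the first setting tests fewer genes, and log2(TPM + 1) understates the change of low genes. The share of windows with the interferon-response core was 8.74% at a fold of 2 or more against 4.07%. A replicate block gave 5354 genes higher with acetate and 5192 with mtDNA. Deviations of same-numbered libraries correlated by 0.0135 to 0.0541 and those of others by -0.0746 to 0.0449, so no pairing was used. Correlations over all genes tested cannot exclude a pairing by number that acts on some genes. With the block, the SE of CXCL10 was 0.0766 against 0.246 and that of MX1 0.0777 against 0.189, while that of CCNE1 was 0.0993 against 0.092. Of 195 named genes, 184 kept direction and side of the threshold in every setting that tested them, which was 14 for 170 genes and 13 for the 25 that fell below 10 counts in some library. The other 11 (CCNE1, COL14A1, CXCL1, FADS1, GBP2, IKBKE, IRF1, MAFF, PDK4, TNFSF10 and TNIP3) lost the call in at least 1, and 0 of 2705 values reversed. Of 490 list medians 37 moved by more than the spread between replicates, and 4 lists changed sign in at least 1 setting (those of ELR+ CXC chemokines, histone acetylation enzymes, p53 targets and CDK inhibitors, and epithelial markers). The causes were not tested. Depth limits what can be said of the 41938 of 57500 genes that did not pass the filter.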

Other observations

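The lists of stress and metabolic genes had small medians, while single members differed by more. Of 21 tested targets of ATF4, the factor of the integrated stress response, 12 were higher with mtDNA and 6 with acetate (median -0.11 on the log2 scale). Against Sen(IR) + CCCP cells the list medians were 0.53 with acetate and 0.70 with mtDNA, and ATF4 itself did not pass the threshold between them (adjusted p = 0.29 in edgeR's quasi-likelihood test). ATF5 was furthest on the mtDNA side, at 13.9 ± 1.13 against 48.5 ± 3.6 CPM, and SLC7A11, the cystine transporter, furthest on the acetate side (0.73). Among 19 NRF2 targets and metallothioneins, 9 were higher with acetate and 6 with mtDNA. NQO1, a quinone reductase, stood at 848 ± 22.7 CPM with acetate against 248 ± 4.9 with mtDNA (1.77), while HMOX1, which degrades haem, was on the mtDNA side (-1.11). PGD, TALDO1 and TKT, enzymes of the pentose phosphate pathway, were higher with acetate. All 3 tested metallothioneins, MT1E, MT1X and MT2A, were higher with mtDNA, MT2A at 229 ± 22.1 against 137 ± 6.09 CPM.

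Acetate was given as its sodium salt. AKR1B1, the aldose reductase that makes sorbitol under osmotic stress, was among the larger changes, with 864, 758 and 824 CPM with acetate against 220.2, 222 and 203 with mtDNA (log2 fold change 1.92, SE 0.0492, adjusted p = 9.41e-14, edgeR). The osmolyte transporters SLC6A6 (0.95) and SLC5A3 (0.58) were higher with acetate too, while NFAT5, the factor that drives these genes, did not pass (adjusted p = 0.305). Over the 12 tested genes of this list 5 were higher with acetate and 4 with mtDNA, 1 in each direction by a fold of 2 or more. The log2 fold changes ran from -1.72 to 1.92 (median -0.056). The shares of 41.7% and 33.3% were not far from those over all genes. No group analysed here received sodium without acetate, so the ions cannot be told apart. In the list of glycolysis and lactate genes 12 of 23 were higher with mtDNA and 6 with acetate. Its 1 member with a fold of 2 or more was TXNIP, a thioredoxin-binding protein and no glycolytic enzyme, at 236 ± 16.9 CPM with mtDNA against 65.1 ± 4.52 with acetate. Of 33 nuclear genes of the respiratory chain 14 were higher with acetate and 8 with mtDNA, 0 of them by a fold of 2 (median 0.069).

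Fatty acid synthesis genes were higher with mtDNA in 9 of 15 cases and with acetate in 3, with FASN at 32.2 ± 3.37 against 21.9 ± 1.61 CPM, while 12 of 24 cholesterol genes were higher with acetate and 7 with mtDNA. Of 28 lysosomal genes 14 were higher with mtDNA and 7 with acetate, and of 19 effectors of cell death 13 against 2. MLKL, the executor of necroptosis, stood at 30.6 ± 1.37 CPM with mtDNA against 8.12 ± 0.354 with acetate and 12.9 ± 0.58 in Sen(IR) + CCCP cells, and the decoy receptor TNFRSF10D led the acetate side, at 758 ± 24.2 CPM against 277 ± 49.5 with mtDNA and 650.0 ± 47.4 with neither.

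Long non-coding RNAs leaned to acetate. Of 1716 tested, 354 (20.6%) were higher with acetate by a fold of 2 or more and 131 (7.63%) with mtDNA, against 779 (6.04%) and 959 (7.44%) of 12891 protein-coding genes. Genes under 1 CPM leaned the same way, with 513 of 2401 (21.4%) higher with acetate by as much and 340 (14.2%) with mtDNA. The biotypes differ in abundance, and the part of abundance in the lncRNA values was not tested.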
